A study of Mus musculus with 6 samples.

Results

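The genes described here encode the fibroblast growth factor (FGF) receptors and ligands that are usually studied in bone. They are the receptor genes Fgfr1, Fgfr2, Fgfr3 and Fgfrl1 and the ligand genes Fgf1, Fgf2, Fgf7, Fgf9, Fgf10 and Fgf18. They form a list of 10 symbols, chosen with earlier results of these data known and matched by gene identifier. All 10 were present among the 55471 genes of the deposited table. After a filter on low counts 9 of them were tested, all but Fgf1, among 13826 tested genes.

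RNA was sequenced from primary osteoblasts of the calvaria of C57BL/6 mice aged 3 days, after a culture of 3 days. The 3 TCKO libraries came from mice in which Prx1-Cre, a recombinase driven in early limb and skull mesenchyme, had deleted floxed alleles of Tet1, Tet2 and Tet3 together (Tet1fl/fl Tet2fl/fl Tet3fl/fl). The 3 WT libraries came from mice labelled wild type, and whether these carried floxed alleles or Cre was not given in the sources used here. Nothing in the labels ties a library to one animal or litter, so p-values measure the spread between these libraries only. Library totals ran from 8019999 to 10177214 counts. Replicates 1 and 2 of each genotype were close to each other (chi-square per degree of freedom 1.69 in WT and 2.04 in TCKO), while replicate 3 stood apart from both (16.5 to 23.3), and TCKO replicate 3 was the only library with the Xist and Ddx3y counts of female cells. Of the targeted genes, Tet1 was lower in TCKO (log2 fold change, TCKO minus WT, -0.97, edgeR adjusted p = 0.00648, Benjamini-Hochberg over all tested genes), Tet2 did not pass (-0.14, adjusted p = 0.545) and Tet3 was higher (0.51, adjusted p = 0.00745), so the genotype of each library is taken from its label. Counts per gene do not separate deleted exons from the rest of a gene, so they cannot settle the deletion. The study tested the knockout by RT-qPCR of these genes in calvarial bone, femur and liver, and also measured them by RT-qPCR in differentiated osteoblasts. It reported more methylated and less hydroxymethylated cytosine in limb and calvarial bone of TCKO mice. The osteoblast markers Runx2, Sp7 and Col1a1 were present in every library, whereas Bglap, the osteocalcin gene of mature osteoblasts, had at most 2 counts.

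FGFs are secreted proteins that bind receptor tyrosine kinases on the cell surface together with heparan sulfate, and the receptors signal through the adaptor FRS2 and the MAP kinase cascade. Alternative splicing of the receptor genes gives IIIb forms, typical of epithelium, and IIIc forms, typical of mesenchyme. In the skull, activating mutations of FGF receptors cause premature fusion of the sutures, and in the growth plate FGFR3 restrains the proliferation of chondrocytes. The counts used here were made per gene and do not separate the IIIb and IIIc forms.

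The ligand genes Fgf7 and Fgf10 differed between the genotypes in opposite directions, although FGF7 and FGF10 are closely related ligands of the same receptor form, the IIIb form of FGFR2. The bases upstream of both starts are shown for that reason. TET enzymes act on methylated cytosine, which in these cells lies mostly in CG dinucleotides, and these are in capitals. DNA methylation was not analysed here. Both windows hold the 250 bases before the start annotated by RefSeq (GRCm38.p6, plus strand), written 5′ to 3′, at chr2:126034408-126034657 for Fgf7 and chr13:118714449-118714698 for Fgf10. The RefSeq start of Fgf7 is that of the deposited gene, whereas the RefSeq start of Fgf10 lies 44908 bp inside the deposited gene, so the Fgf10 window falls within its span.
Fgf7: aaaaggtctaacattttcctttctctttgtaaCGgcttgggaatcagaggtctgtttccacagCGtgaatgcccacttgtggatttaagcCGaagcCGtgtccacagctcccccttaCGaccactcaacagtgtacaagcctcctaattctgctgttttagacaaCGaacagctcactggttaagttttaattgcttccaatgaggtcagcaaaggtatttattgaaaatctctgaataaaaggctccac
Fgf10: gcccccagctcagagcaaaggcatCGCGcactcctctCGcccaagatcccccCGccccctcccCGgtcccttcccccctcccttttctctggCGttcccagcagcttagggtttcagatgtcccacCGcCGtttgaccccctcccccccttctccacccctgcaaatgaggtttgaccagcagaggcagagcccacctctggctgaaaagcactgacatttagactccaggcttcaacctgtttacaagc

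The Fgf7 window held 6 CG dinucleotides and the Fgf10 window 8, against a median of 6 over the 32851 RefSeq windows of this length. Windows of 8 of the 10 genes were read. None was found for Fgfr1, and Fgf1 was not read because its chromosome, 18, was left out of this step. The letters TGTGGT and TGCGGT, the core bound by RUNX factors, were searched on both strands and were in neither window, while 18.6% of all windows held one of them. Among the other members with a window that was read, a match was present in the Fgf2 window, which held 20 CG dinucleotides. A match describes letters only, and the absence of one says nothing about a factor. The study reported RUNX2 at the promoter region of Fgf7 from published ChIP-seq data, and Fgf7 as hypermethylated with closed chromatin in TCKO.

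To order the genes by level, counts were scaled per kilobase of exon and to the library total (RPKM), with TMM-scaled library sizes. In WT, Fgf7 was the highest of the 10 genes, at 26.9, 28.1 and 38.5 RPKM in replicates 1, 2 and 3. Fgfrl1, which encodes a receptor without a kinase domain, followed at 22.7 ± 5.16 RPKM, then Fgfr1 at 22.4 ± 2.05 RPKM and Fgfr2 at 15.8 ± 1.53 RPKM (SD, n = 3). The range of Fgfrl1 (16.8 to 25.8 RPKM) overlapped those of Fgfr1 (20.1 to 23.7 RPKM) and Fgfr2 (14.2 to 17.3 RPKM), while those of Fgfr1 and Fgfr2 were separate. Below a gap came Fgf2 at 5.49 ± 0.735 RPKM and Fgfr3 at 3.09 ± 1.37 RPKM. Fgf10 (2.40 RPKM), Fgf18 (2.03 RPKM) and Fgf9 (1.60 RPKM) overlapped in their WT ranges, and Fgfr3 (2.06 to 4.64 RPKM) overlapped Fgf10. Fgf1 was near the floor of detection, with 6, 4 and 0 counts in the WT libraries against 2, 1 and 2 for TCKO, where 3 counts equal 0.299 to 0.373 CPM (counts scaled to the TMM-scaled library total, without length).

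The order in TCKO was different at several places. Fgfr1 (23.2 ± 5.30 RPKM) and Fgfrl1 (20.1 ± 2.08 RPKM) led and overlapped, and Fgf7 followed at 12.9 ± 3.96 RPKM. Fgf10, which lay below Fgfr2, Fgf2 and Fgfr3 in WT, came next at 6.06 ± 0.643 RPKM, above Fgfr2 at 4.32 ± 0.0367 RPKM. Fgf2 was at 2.91 RPKM, and the means of Fgf18, Fgf9 and Fgfr3 lay between 1.19 and 1.89 RPKM. Fgfr3 overlapped both of the others, while every Fgf18 value was above every Fgf9 value.

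**Figure D1:**
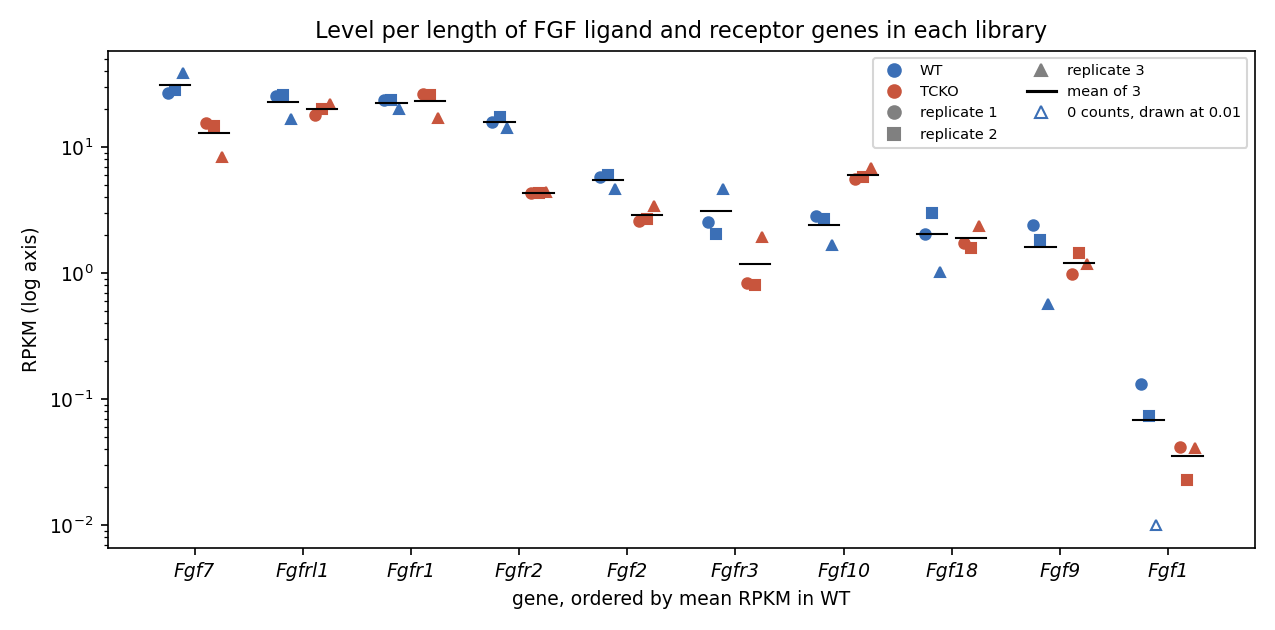
Level of the 10 genes in each library, in RPKM on a log axis, with WT in blue, TCKO in red, marker shapes for replicate numbers and a bar for the mean of 3; the open symbol stands for the library with 0 counts of Fgf1. Fgfr2 sits between 14.2 and 17.3 RPKM in WT and between 4.30 and 4.37 RPKM in TCKO, while the Fgfr1 points of the genotypes overlap.

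Genes of the FGF family were then compared between TCKO and WT. Of the 9 tested genes, 3 were lower in TCKO (Fgfr2, Fgf7 and Fgf2), 1 was higher (Fgf10) and 5 did not pass at an edgeR adjusted p under 0.05. Over all tested genes 17.7% passed, 8.63% lower and 9.07% higher. The list was chosen with earlier results of these data known, so the comparison with these shares is descriptive only. Fgfr2 and Fgf7 were lower over 2-fold, as were 3.19% of all tested genes, and Fgf10 was higher over 2-fold, as were 3.16% (6.35% in either direction). The median log2 fold change of the 9 genes was -0.42, against 0.0002 over all tested genes. That median is the value of Fgf9 (-0.42 ± 0.44, SE), which did not pass. For 5 of the 9 genes, those named and Fgfr3, the CPM ranges of WT and TCKO were separate, where 38.3% of all tested genes had ranges that did not overlap.

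Among the receptors, Fgfr2 showed the largest difference relative to its error. Fgfr2 (ENSMUSG00000030849, chromosome 7, 130162451 to 133123350, GRCm38), a receptor carried by osteoprogenitors at the sutures, gave 1358, 1790 and 1214 counts in replicates 1, 2 and 3 of WT. In TCKO it had 390, 357 and 402 counts. The groups were far apart, and the TCKO libraries were nearly equal at 44.5, 44.4 and 45.1 CPM. Its mean fell from 163 ± 15.8 to 44.7 ± 0.379 CPM (SD, n = 3). The log2 fold change, TCKO minus WT, was -1.87 ± 0.09 (SE; adjusted p = 4.3e-05 by edgeR), or 3.66-fold. Fgfr2 passed in all 15 alternative fits, with log2 fold changes from -1.95 to -1.80 and a highest adjusted p of 0.0117. The deposited gene model of Fgfr2 shares 314 bp of exon, 3.04% of its length, with Ctbp2 on the same strand. The RefSeq start of Fgfr2 lies 2856542 bp inside this model, whose length was used for the RPKM of Fgfr2.

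Fgfr3 (ENSMUSG00000054252, chromosome 5, 33721674 to 33737068), the receptor best known from cartilage, gave 151, 148 and 274 counts in the WT libraries against 52, 46 and 124 for TCKO. Replicate 3 held the most counts in both genotypes, and the highest TCKO library (13.9 CPM) lay just below the lowest WT library (14.8 CPM). Its log2 fold change was -1.36 ± 0.42, with an edgeR adjusted p of 0.0599. With the replicate number as a block the value was -1.40 and the edgeR adjusted p 0.000808, under the threshold. Without TCKO replicate 3 it was -1.91 with an edgeR adjusted p of 0.0113, and without WT replicate 3 it was -0.94 with an adjusted p of 0.121. Within replicates 1, 2 and 3, the log2 difference of CPM plus 2 was -1.35, -1.12 and -1.15, lower in TCKO in each.

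Fgfr1 (ENSMUSG00000031565, chromosome 8, 25513654 to 25575718), the main FGF receptor of mesenchyme, gave 1937, 2325 and 1636 counts in the WT libraries against 2287, 2070 and 1503 for TCKO. The groups overlapped, with replicate 3 the lowest library of each genotype. The log2 fold change of Fgfr1 was 0.05 ± 0.17 (edgeR adjusted p = 0.876), and its sign turned in 5 of 15 alternative fits. Fgfrl1 (ENSMUSG00000008090, chromosome 5, 108692382 to 108706924) had 71.3, 71.7 and 46.7 CPM in WT and 50.1, 55.6 and 61.7 CPM in TCKO. The groups overlapped because WT replicate 3 was the lowest of all 6 libraries. Its log2 fold change was -0.18 ± 0.17 (edgeR adjusted p = 0.505), and without WT replicate 3 it was -0.36 with an edgeR adjusted p of 0.0436.

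The make-up of the signalling receptors was compared as the share of each in the summed RPKM of Fgfr1, Fgfr2 and Fgfr3. The sum was 42.2, 42.9 and 39.0 RPKM in WT and 31.6, 31.2 and 23.4 RPKM in TCKO, with no overlap. Fgfr2 made up 37.7%, 40.4% and 36.6% of the sum in WT and 13.7%, 13.8% and 18.7% in TCKO. Fgfr1 made up 54.2 ± 2.42% in WT and 80.1 ± 6.16% in TCKO (SD, n = 3). The shares are parts of one sum and so depend on each other. The RPKM of Fgfr1 itself was 22.4 ± 2.05 in WT and 23.2 ± 5.30 in TCKO. The Fgfr2 share differed by -22.8 percentage points and the Fgfr1 share by 25.9 points, each with p = 0.1 (exact permutation test, two-sided, adjusted p = 0.15 over 3 receptors), the smallest p that 3 libraries against 3 allow. The Fgfr3 share, 7.59 ± 3.79% in WT and 4.50 ± 3.30% in TCKO, overlapped between the genotypes (p = 0.5, exact permutation test, adjusted p = 0.5). Within replicates 1, 2 and 3 it was lower in TCKO each time, at 2.63% against 6.05%, 2.56% against 4.81% and 8.31% against 11.9%, and the exact permutation test within replicate number gave p = 0.25, the smallest it allows.

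**Figure D2:**
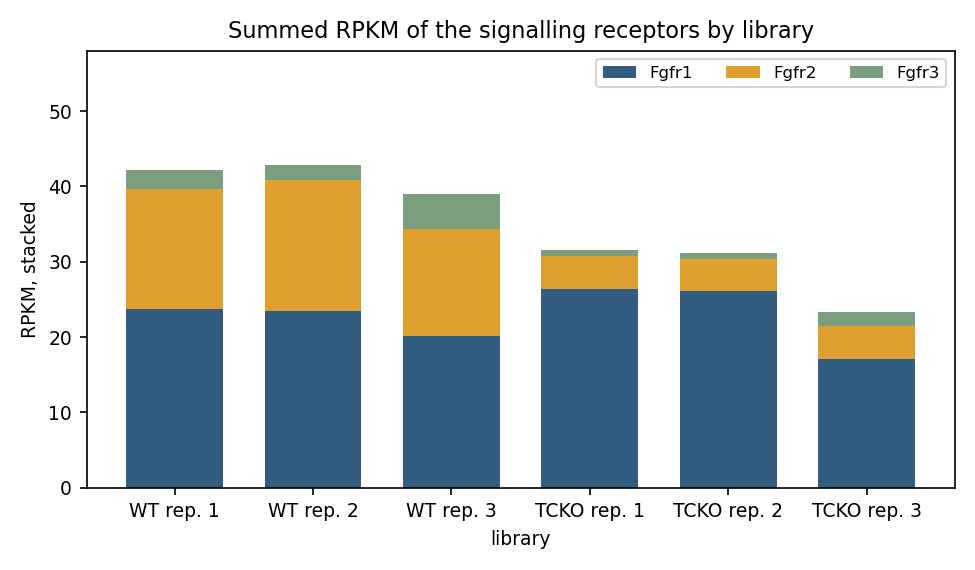
Stacked bars of the RPKM of Fgfr1, Fgfr2 and Fgfr3 in each of the 6 libraries. The Fgfr2 segment is 14.2 to 17.3 RPKM in the WT libraries and 4.30 to 4.37 RPKM in the TCKO libraries, and the sum is lower in every TCKO library than in every WT library.

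Among the ligands, Fgf7 (ENSMUSG00000027208, chromosome 2, 126034658 to 126091185), a mesenchymal growth factor that is also called keratinocyte growth factor, gave 722, 916 and 1031 counts in the WT libraries. In TCKO it had 446, 383 and 242 counts. Replicate 3 was the highest WT library and the lowest TCKO library, so the replicate 3 pair was the furthest apart. Its log2 fold change was -1.27 ± 0.24 (edgeR adjusted p = 0.010), and the log2 difference of CPM plus 2 was -0.76, -0.91 and -2.12 within replicates 1, 2 and 3. Because replicates 1 and 2 were so close, a fit with their counts summed was made, with 2 samples against 2. It gave Fgf7 a log2 fold change of -1.47 with an edgeR adjusted p of 0.0842, and 0.0527 when the replicate block was added (range over 15 alternatives 1.1e-17 to 0.0842).

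Fgf10 (ENSMUSG00000021732, chromosome 13, 118669791 to 118792115), a ligand needed for limb bud outgrowth, gave 108, 123 and 64 counts in the WT libraries against 227, 213 and 279 for TCKO. The groups did not overlap, and here too the replicate 3 libraries were the furthest apart. Its level was 13.1, 12.3 and 7.76 CPM in WT, against a mean of 27.9 ± 2.96 CPM (SD, n = 3) for TCKO. Fgf10 rose 2.52-fold, or 1.33 ± 0.19 on the log2 scale (adjusted p = 0.00348 by edgeR). With replicates 1 and 2 summed the log2 fold change was 1.47 and the edgeR adjusted p 0.0568, and 0.0318 when the replicate block was added (range over 15 alternatives 2.1e-11 to 0.0568). Per length, Fgf7 exceeded Fgf10 by 9.47, 10.5 and 22.8 times in the WT libraries and by 2.78, 2.55 and 1.23 times in the TCKO libraries.

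Fgf2 (ENSMUSG00000037225, chromosome 3, 37348346 to 37410108), basic FGF, a ligand stored in the bone matrix, gave 327, 407 and 260 counts in the WT libraries against 155, 146 and 208 for TCKO. The groups did not overlap, and replicate 3 was the lowest WT library and the highest TCKO library. Mean Fgf2 fell from 37.2 ± 4.98 CPM in WT to 19.7 ± 3.13 CPM in TCKO (SD, n = 3), which is -0.92 ± 0.15 on the log2 scale (adjusted p = 0.00542 by edgeR). With replicates 1 and 2 summed the log2 fold change was -0.81 and the edgeR adjusted p 0.113, and 0.0714 when the replicate block was added (range over 15 alternatives 3.3e-16 to 0.113). Fgf2 shares 640 bp of exon with Nudt6 on the opposite strand. Nudt6 itself averaged 9.67 counts against 250.5 for Fgf2.

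Fgf9 and Fgf18, ligands of the IIIc receptor forms that act in the growth plate and the sutures, were low and overlapped between the genotypes. Fgf9 (ENSMUSG00000021974, chromosome 14, 58070547 to 58112720) gave 92, 85 and 22 counts in the WT libraries against 40, 54 and 49 for TCKO. WT replicate 3 was the lowest of the 6 libraries while the other WT libraries were the highest. Its log2 fold change was -0.42 ± 0.44 (edgeR adjusted p = 0.565), and without WT replicate 3 it was -0.81 with an edgeR adjusted p of 0.0445. Fgf18 (ENSMUSG00000057967, chromosome 11, 33117430 to 33147400) gave 20, 36 and 10 counts in the WT libraries against 18, 15 and 25 for TCKO, which is -0.12 ± 0.40 on the log2 scale (adjusted p = 0.868 by edgeR). The sign of the Fgf18 difference turned in 3 of 14 alternative fits.

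**Figure D3:**
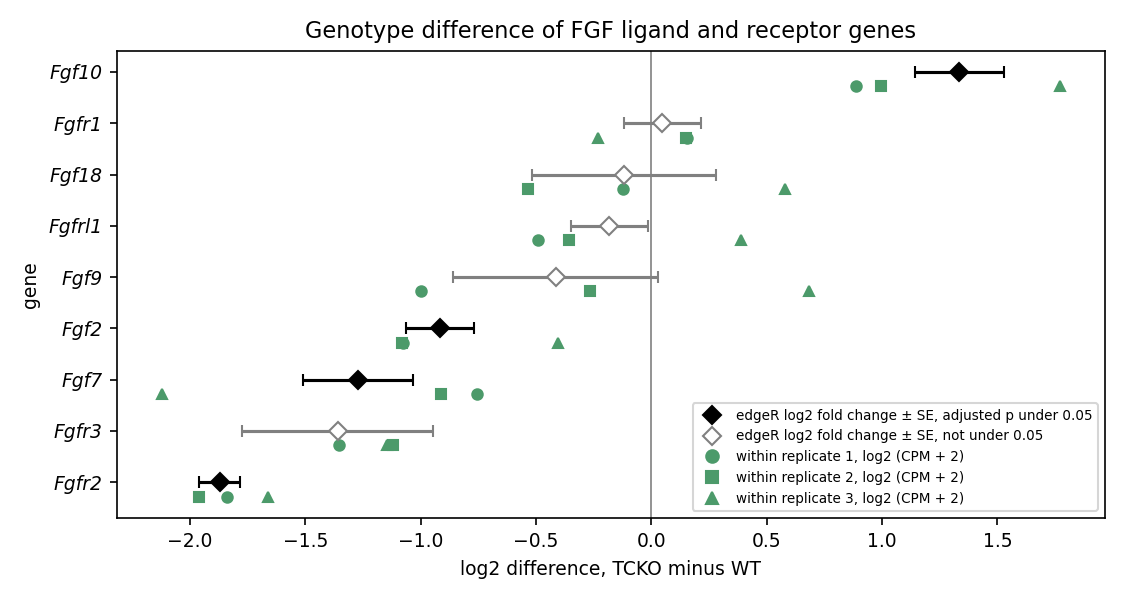
Log2 difference, TCKO minus WT, of the 9 tested genes. Diamonds with bars are edgeR log2 fold changes ± SE, filled where the adjusted p is under 0.05, and green symbols are differences within replicates 1, 2 and 3 in log2 of CPM plus 2; for Fgfr1, Fgfrl1, Fgf9 and Fgf18 the replicate 3 symbol lies on the other side of 0 from those of replicates 1 and 2.

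In cultures measured in bulk, fewer cells of a type and less RNA per cell cannot be told apart. For the marker counts below, the shares over all tested genes were 8.63% lower and 9.07% higher. Of 6 chondrocyte markers 5 were lower in TCKO. The other, Matn3, had 5, 11 and 7 counts in WT against 15, 12 and 12 in TCKO. It did not pass (log2 fold change 0.81, edgeR adjusted p = 0.143). The summed level of the chondrocyte markers was 6204 to 8138 CPM in WT and 685 to 967 CPM in TCKO. Most of it was Col2a1 (5728 to 7539 CPM in WT, 598 to 843 in TCKO). Of 5 macrophage markers 2 were lower. The summed level of the 5 was 386 to 690 CPM in WT and 154 to 525 CPM in TCKO. Most of it was Lyz2 (325 to 616 CPM in WT, 131 to 488 in TCKO), which did not pass. Of 7 osteoblast markers 3 were lower (Runx2, Alpl and Col1a1) and 1 higher (Spp1), with a summed level of 23375 to 24324 CPM in WT and 14830 to 25678 CPM in TCKO. Most of that sum was Col1a1 (21498 to 23204 CPM in WT, 11333 to 16303 in TCKO) and Spp1 (845 to 1762 and 3311 to 9270), which moved in opposite directions. It says little about the less abundant markers. Alpl was at 16.3 to 57.6 CPM in WT and 1.37 to 3.81 CPM in TCKO. Sp7, which did not pass, was at 108 to 283 CPM in WT and 31.3 to 103 CPM in TCKO. The part of cartilage, macrophage and osteoblast cells in the lower Fgfr2, Fgf7 and Fgf2, and in the values of Fgfr3, was not tested. Epithelial markers were at or near 0, with at most 1 count of Epcam, 2 of Krt5, 3 of Cdh1 and 0 of Krt14 in any library, apart from Trp63 (30, 52 and 13 counts in WT against 1, 0 and 0 for TCKO). Of the endothelial markers, Pecam1, Cdh5, Tek and Emcn had at most 8 counts, whereas Kdr had 3 to 13 counts in WT and 266 to 837 in TCKO. Of 5 muscle markers 2 were tested and 1 was higher, Acta1 (log2 fold change 3.14, edgeR adjusted p = 0.00416), while Des was at 0.54 (adjusted p = 0.285). Of those not tested, Myod1 had at most 10 counts, Myog at most 20 and Pax7 0, and the highest library of Myod1 and of Myog was WT replicate 3.

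The other genes of the pathway were read by role. Of 62 genes listed, 45 were tested, and 7 were higher and 5 lower in TCKO. That is 12 of 45, beside 17.7% of all tested genes. These lists too were chosen with earlier results known, so the comparison is descriptive only. With replicates 1 and 2 summed, 1 was higher, Dusp4, and 0 were lower, beside 217 higher and 169 lower of all 13826 tested genes. With the replicate block added to the sums 7 were higher and 2 lower, beside 584 and 566 of all tested genes.

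Of the 17 other FGF genes, which include Fgfr4, 5 were at 0 in every library and 12 were not tested. Fgf11, a member of the intracellular FGFs that are not secreted, was lower, with 23, 24 and 22 counts in the WT libraries against 7, 11 and 10 for TCKO (log2 fold change -1.25, edgeR adjusted p = 0.0239). That call was lost without WT replicate 1 (edgeR adjusted p = 0.0875), WT replicate 2 (0.0698) or TCKO replicate 1 (0.0887), and under DESeq2 (0.0614). Of the genes for co-receptors and FGF-binding proteins, Flrt2, whose membrane protein binds FGF receptors, rose from 506 ± 57.6 to 949.5 ± 136 CPM (SD, n = 3; log2 fold change 0.91, edgeR adjusted p = 0.00318). Fgfbp3, which encodes a carrier of secreted FGFs, was higher by 0.89 on the log2 scale (adjusted p = 0.0339 by edgeR), a call kept in 1 of the 6 fits that left out a library, the one without WT replicate 3, with adjusted p from 0.0541 to 0.129 in the others. Flrt3 was lower (log2 fold change -0.59, edgeR adjusted p = 0.0103, and 0.0532 without WT replicate 1). The klotho genes Kl and Klb, co-receptors of the hormone-like FGFs, had at most 2 counts in any library.

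Heparan sulfate, the co-receptor of secreted FGFs, is modified by enzymes of which 9 were tested, 1 of them higher and 2 lower. The shares over all tested genes were 9.07% higher and 8.63% lower. Hs6st2, a 6-O-sulfotransferase, fell from 420.5 ± 65.2 to 205 ± 6.61 CPM (SD, n = 3; log2 fold change -1.04, edgeR adjusted p = 0.00129). Sulf2, which removes 6-O-sulfates outside the cell, fell with a log2 fold change of -0.70 (adjusted p = 0.00341 by edgeR), and Hs2st1, a 2-O-sulfotransferase, rose with one of 0.73 (edgeR adjusted p = 0.00187). These calls held in all 6 fits that left out a library, but not when replicates 1 and 2 were summed, where Hs6st2 and Hs2st1 each had an adjusted p of 0.0531 and Sulf2 one of 0.0877 by edgeR.

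Of the 14 adaptors and relay proteins, 13 did not pass, Frs2 (log2 fold change -0.11, edgeR adjusted p = 0.291) among them. Over all tested genes 11379 of 13826 did not pass. Gab1, a docking protein, was lower (log2 fold change -0.46, edgeR adjusted p = 0.0308), a call kept in 1 of the 6 fits that left out a library, the one without WT replicate 3, with adjusted p from 0.0555 to 0.120 in the others. Of the 11 feedback inhibitors, which are commonly read as targets of FGF and MAP kinase signalling, 10 were tested, and 3 were higher and 0 lower. Over all tested genes 9.07% were higher and 8.63% lower. Dusp4, a phosphatase that removes phosphate from MAP kinases, gave 20, 30 and 23 counts in the WT libraries against 103, 82 and 190 for TCKO, which is 2.39 ± 0.32 on the log2 scale (adjusted p = 0.00243 by edgeR). Spred3 rose with a log2 fold change of 0.97 (adjusted p = 0.00435 by edgeR). Dusp5 was higher by 1.15 on the log2 scale (edgeR adjusted p = 0.0375), a call kept in 1 of the 6 fits that left out a library, the one without WT replicate 3, with adjusted p from 0.0645 to 0.135 in the others. Dusp6, Spry1, Spry2 and Spry4, which respond to FGF receptor activity in many tissues, did not pass, with log2 fold changes from -0.18 to 0.16. Of the ETS factors, Etv4 was higher (log2 fold change 0.91, edgeR adjusted p = 0.0171, with 0.0684 without WT replicate 2 and 0.0554 without TCKO replicate 2), and Etv1 (0.09) and Etv5 (-0.14) did not pass.

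**Figure D4:**
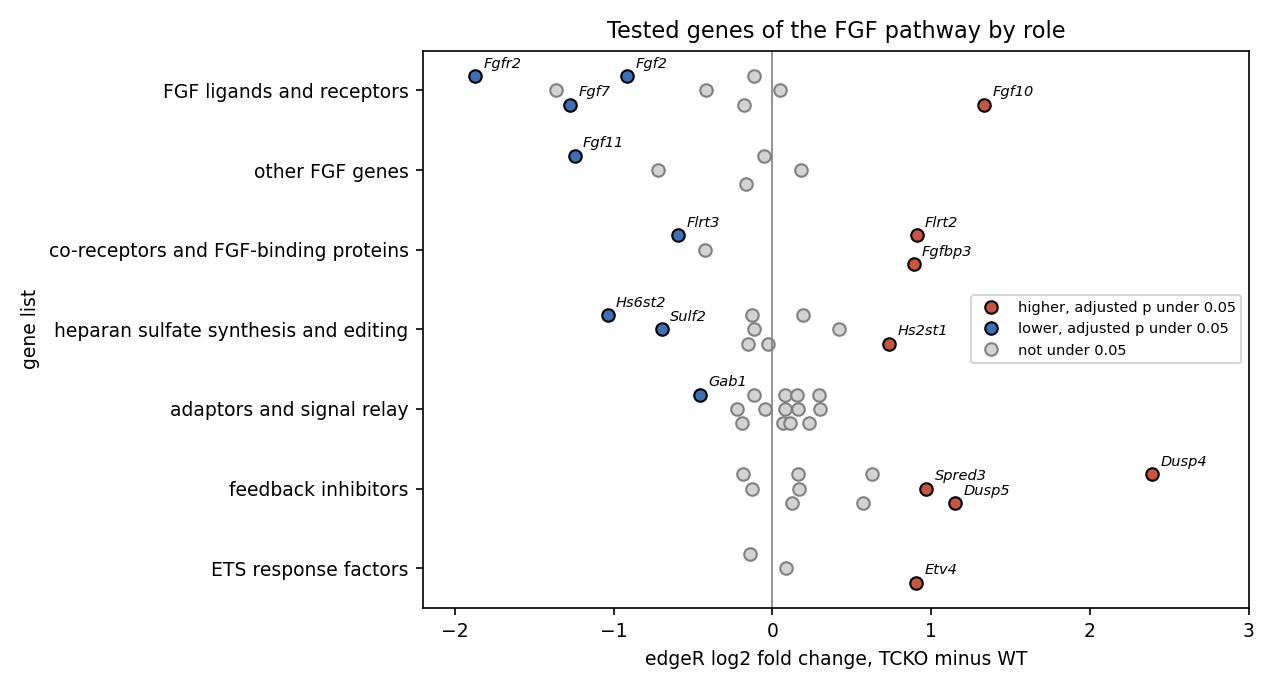
edgeR log2 fold change, TCKO minus WT, of each tested gene by role, one point per gene, red where higher and blue where lower at an adjusted p under 0.05 and grey otherwise. Named points are those that passed: Dusp4 lies furthest to the right at 2.39 and Fgfr2 furthest to the left at -1.87. Of the adaptors and relay genes 13 of 14 are grey, where 11379 of all 13826 tested genes did not pass.

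Genes with the most similar profile over the 6 libraries were found for each FGF gene that passed, as the smallest root mean square difference of centred log2 CPM among 10956 genes with a mean of at least 50 counts. For Fgfr2 these were Plagl1, Peli2 and Plxnc1, with differences of 0.115 to 0.133. Fgf2 was closest to Ephx1, Lamb2 and Emp1, with differences of 0.0317 to 0.0582, and Fgf7 to Xaf1, Sec16b and Ifi27, with differences of 0.0899 to 0.129. Fgf10 was closest to Marcksl1, Slc5a3 and Kcnab1, with differences of 0.0677 to 0.106. The profiles carry the genotype difference and the set-apart replicate 3 alike, and they describe these 6 libraries only.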

How the data were processed

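The authors aligned the reads with STAR 2.7.0e to GRCm38 (Ensembl release 99 annotation) and counted them with featureCounts 2.0.0. The deposited values are raw counts per gene, with exon length in bp; strand setting and treatment of shared reads are not given in the sources used here. Symbols were matched for 99.4% of genes. No column (0) was left unassigned and no row (0) lacked a gene identifier. Counts were tested with edgeR 4.0.16 in R 4.3.3: filterByExpr, TMM and the quasi-likelihood functions glmQLFit and glmQLFTest, with all 6 libraries in 1 fit, no covariate, Benjamini-Hochberg adjustment over 13826 genes and a threshold of 0.05. The fit was tested on simulated counts with the same dispersion for every gene. These had no set-apart replicate 3, so that test does not cover the replicate structure of these libraries. SEs were derived from the F statistic. CPM and RPKM were computed with TMM-scaled totals. Floors of 3 counts cover counting error only. The members and gene lists were chosen with earlier results of these data known. Of each pathway list, up to 4 genes with the lowest adjusted p under 0.05 were named, and those over 2-fold; other genes and markers were named after their values were seen.

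Same-numbered WT and TCKO libraries deviated together (correlations across genes 0.204, 0.214 and 0.347), so the replicate number was also fitted as a block. Replicates 1 and 2 were not told apart by this (0.188 and 0.225 when crossed). Other alternatives were DESeq2 size factors, other filters, DESeq2 1.42.0 with and without the RPKM minimum of 0.24 that the study used, each library left out, and replicates 1 and 2 summed. A fit without both replicate 3 libraries was chosen after seeing the data.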

Additional observations from a re-analysis of the deposited data

How the results depend on the processing

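With replicates 1 and 2 summed, 0 members were higher, 1 lower (Fgfr2) and 1 over 2-fold, and 1 pathway gene was higher and 0 lower. A replicate block on these sums gave 1 member higher (Fgf10), 2 lower (Fgfr2 and Fgfr3, the latter with an edgeR adjusted p of 0.0121) and 3 over 2-fold, with 7 pathway genes higher and 2 lower. Without both replicate 3 libraries, a fit whose spread comes from the close pairs alone, 2 members were higher and 6 lower, and 14 pathway genes were higher and 11 lower. In fits without 1 library, between 3 and 5 members were lower (5 without WT replicate 3), between 3 and 5 were over 2-fold (5 without TCKO replicate 3), and 4 to 9 pathway genes were higher and 2 to 7 lower. Over all genes, 1254 were higher and 1193 lower, against 217 and 169 with replicates 1 and 2 summed, 584 and 566 with the block on these sums, 3121 and 3116 without both replicate 3 libraries, and 603 to 1613 and 550 to 1509 without 1 library. Why these counts moved was not tested. With the replicate block, 4 members were lower, the added one being Fgfr3, and 1 was higher. The block changed no other member's call. Over all genes that fit gave 1664 higher and 1585 lower, more than without the block. For the shares of the receptors, permutation within replicate number (the same pairing) left the differences at 25.9 points for Fgfr1, -22.8 for Fgfr2 and -3.09 for Fgfr3, each with p = 0.25, the smallest that exact test allows. The log2 fold change of Fgfr1 ranged from -0.058 to 0.23 in fits without 1 library and reversed to -0.027 without WT replicate 3, -0.058 without TCKO replicate 1, -0.045 without TCKO replicate 2, -0.010 with replicates 1 and 2 summed and -0.037 with the block on these sums. That of Fgf18 ranged from -0.43 to 0.30 and reversed to 0.30 without WT replicate 2, 0.061 with the sums and 0.076 with the block on them. Fgfr3 passed with DESeq2 (adjusted p = 0.00444), with DESeq2 and the RPKM minimum (0.00395) and without the low count filter (edgeR adjusted p = 0.00109). Across these fits, Fgfr2 kept its direction and call. Fgf1 and 12 of the 17 other FGF genes had too few counts to be tested.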
